A study of Drosophila melanogaster with 999 samples.

Results

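The genes that make and carry the monoamines dopamine, octopamine, tyramine and serotonin were followed in cells sorted as motoneurons (MNs) from Drosophila melanogaster embryos. The members are 9 of the 7279 genes in the deposited gene counts, and all 9 were found by their symbols. They are the transporters Vmat, DAT and SerT, the synthesis enzymes ple, Ddc, Tdc2, Tbh and Trh, and Pu, an enzyme of cofactor synthesis. The cells came from embryos of 19 to 20 h in which OK371-GAL4, a driver that is active in glutamatergic neurons, switched on UAS-RFP. RFP-positive cells of pooled embryos were sorted into 96-well plates, and each was sequenced by the SMART-Seq2 method. To this method, primers for 7 of the Hox genes had been added. All cells therefore share 1 genotype and age and carry no treatment. They represent the glutamatergic cells that this driver reaches rather than all monoaminergic neurons. The paper reports that the driver is also active in a few glutamatergic brain neurons. It left cells without a Hox gene out of its later analyses, because they might include such neurons. Those cells are kept here, and whether they are MNs was not tested. No label ties a cell to an embryo. The cells thus form 1 pooled sample, are not replicates and were not tested against each other.

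The total count of a cell lay between 100027 and 5834773 (median 340803), on 16 plates of 17 to 82 cells whose median totals lay between 129256 and 658763. A gene was called present in a cell at 10 or more reads, and a cell is named here by the gene present in it, so that a Tbh cell is a cell with at least 10 Tbh reads. The interval beside a share of cells is the exact 95% Clopper-Pearson interval. For a count of 0, the share that the count allows is given as 3 over the number of cells. Both are computed from numbers of cells and cover the error of that count only. Reads after PCR are not independent molecules. The spread between embryos is in neither limit, so that overlap of intervals describes these cells and is not a test. RPM is the reads of a gene per 1000000 counts of its cell. Levels of different genes were compared only as TPM, a unit of the same kind that takes account of transcript length. Syt1, a synaptic vesicle protein of neurons, was present in 99.2% of the cells and VGlut, the vesicular glutamate transporter, in 92.2% (interval 90.4 to 93.8). The glial gene repo was present in 1 cell, the muscle gene Mhc in 2 cells and the blood cell gene Hml in 3 cells. The cells thus carried genes of neurons and of glutamate transport, and these genes of glia, muscle and blood were near 0. The paper states that the driver rests on a regulatory element of VGlut, so VGlut does not test whether the cells are MNs. The MN gene zfh1 was present in 33.7% of the cells (30.8 to 36.8). Of the same marker lists, nrv2 (glia) and Mef2 (muscle) were read widely, in 53.4% and 33.3% of the cells.

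Monoamine neurons make their transmitter in a few enzymatic steps. The enzyme ple hydroxylates tyrosine and Ddc decarboxylates the product to dopamine. Trh hydroxylates tryptophan, after which Ddc, here too, completes serotonin. Tdc2 decarboxylates tyrosine to tyramine, and Tbh converts tyramine to octopamine. Pu, GTP cyclohydrolase, starts the synthesis of tetrahydrobiopterin, the cofactor of ple and Trh. Vmat loads all of these amines into synaptic vesicles, while DAT and SerT return dopamine and serotonin to the cell. In the fly ventral nerve cord, octopamine is known from the ventral unpaired median (VUM) neurons, which modulate body wall muscles. Outside neurons, ple, Ddc and Pu also serve the hardening and pigmentation of the cuticle.

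In the BDGP6.54 annotation, Tbh (FBgn0010329) lies on the plus strand of chromosome X from 7995697 to 8027394. Ddc (FBgn0000422) lies on the minus strand of 2L from 19116483 to 19120306. On the minus strand of 3L are ple (FBgn0005626), from 6713356 to 6719525, and Trh (FBgn0035187, there spelled Trhn), from 1190384 to 1193173. The other genes, Vmat (FBgn0260964), DAT (FBgn0034136), SerT (FBgn0010414), Tdc2 (FBgn0050446) and Pu (FBgn0003162), are all on 2R. These are whole genes, and the counts cover their transcripts.

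At least 1 member was present in 34.1% of the cells (interval 31.2 to 37.2) and at least 2 members in 12.8% (10.8 to 15). No read of any member was found in 48.8% of the cells. The members fell into a frequent and a rare class. Ddc was in 16.3% of the cells (14.1 to 18.8), Tbh in 10.5% (8.68 to 12.6), Pu in 9.71% (7.94 to 11.7) and Vmat in 7.91% (6.31 to 9.76). The other genes were rarer, with DAT and ple in 35 cells each (3.5%, 2.45 to 4.84), SerT in 27 (2.7%, 1.79 to 3.91), Tdc2 in 21 (2.1%, 1.31 to 3.2) and Trh in 18 (1.8%, 1.07 to 2.83). Ddc, Tbh, Pu and Vmat were present on all 16 plates, and Tdc2, with the fewest plates, on 12. The read minimum weighed most on Tbh and Pu. With 1 read as the minimum, Tbh was in 22.3% of the cells and was the most frequent member, above Ddc with 20.1% and Pu with 18.3%. Between 1 and 9 reads were found in 24 cells for Vmat, in 86 for Pu and in 2 for Trh.

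Where they were present, DAT and Vmat had the highest median levels and Pu and Tbh the lowest. The median TPM in positive cells was 2281 for DAT and 2236 for Vmat, then 1191 for Tdc2, 940.5 for SerT, 900.8 for Trh, 589.4 for ple and 465.4 for Ddc. Pu had a median of 181.3 TPM and Tbh of 136.3 TPM. The ranges between quartiles overlapped for every pair of neighbours in this order. Levels spread over orders of magnitude within each gene. Vmat counts in positive cells ran from 16 over a median of 1183 to 32578 reads, and Tbh counts from 10 over 93 to 3421 reads. The reads of the rare genes sat in few cells. A single cell held 50.1% of all Trh reads and 43.6% of all SerT reads, and the 10 highest cells held 96.1% of the Trh and 91.5% of the SerT reads. For Pu, by contrast, the 10 highest cells held 32.7%.

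The 79 Vmat cells fell into groups by the synthesis and uptake genes they carried. Genes of dopamine (ple or DAT) without those of the other amines were present in 25 cells, genes of octopamine (Tdc2 or Tbh) in 23 cells and genes of serotonin (Trh or SerT) in 11 cells. Genes of more than 1 of these systems were present in 3 cells, and 17 cells had none of the 6 genes. Complete sets were found for dopamine, octopamine and serotonin. All of ple, Ddc, DAT and Vmat were present in 18 cells, Tdc2, Tbh and Vmat in 11 cells, and Trh, Ddc, SerT and Vmat in 9 cells. Of the 18 Tdc2 cells with Vmat, 7 had no Tbh, and 5 Vmat cells had Tbh without Tdc2.

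**Figure D1:**
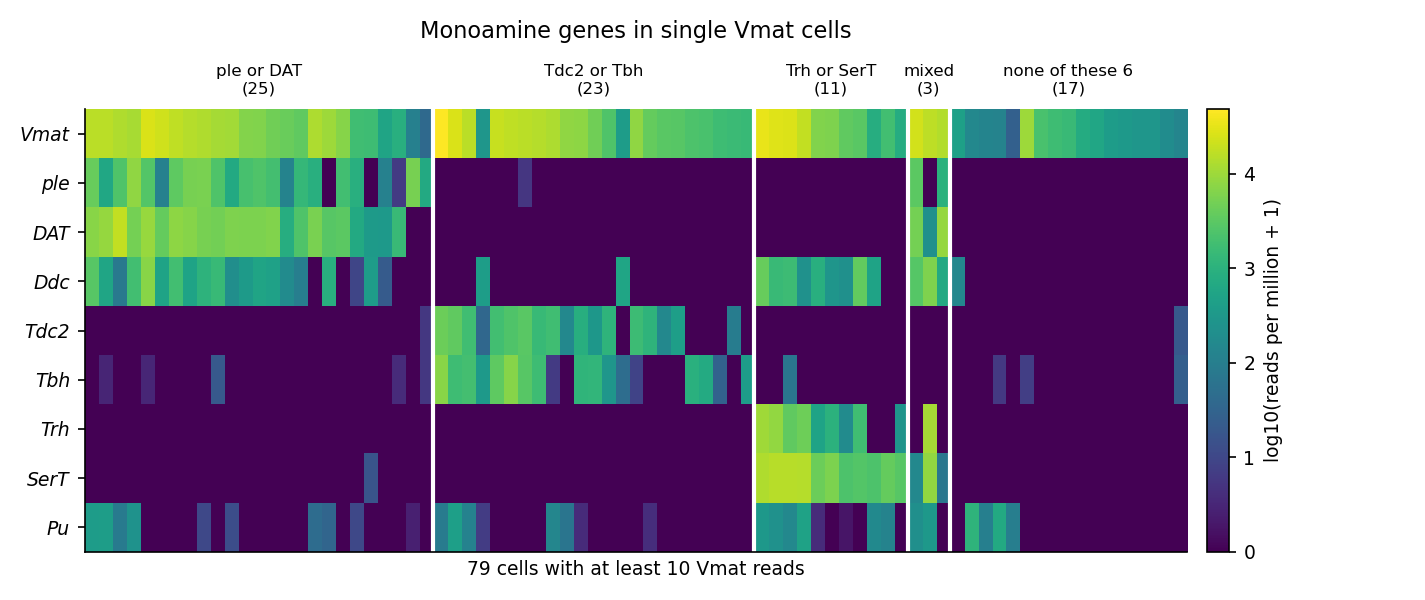
Levels of the 9 genes (rows, log10 of RPM + 1 as colour) in each of the 79 Vmat cells (columns), grouped by the genes present. The 25, 23 and 11 cells with genes of dopamine, octopamine or serotonin form separate blocks, and the 17 cells at the right have none of the 6 genes and mostly low Vmat.

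The first enzymes of the amines did not share cells. One of ple, Tdc2 and Trh was present in 74 cells, 52 of them Vmat cells, and no cell had 10 reads of more than 1 of them. The limit that a count of 0 allows is wide here, because the genes are rare. If each pair were spread over cells independently, ple and Tdc2 would share 0.736 cells, ple and Trh 0.631 cells and Tdc2 and Trh 0.378 cells. At 1 read, ple and Tdc2 met in 3 cells, in each of which 1 of the genes had 2 reads.

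The 3 cells with genes of more than 1 system carried a weak second uptake transporter. A cell of plate 1 had 22764 RPM of Vmat, 5129 of DAT and 3230 of ple, beside 152.8 RPM (21 reads) of SerT. A cell of plate 5 had 13899 RPM of Vmat, 8741 of DAT and 983.8 of ple, beside 72.2 RPM (16 reads) of SerT. In the last one, on plate 12, Trh had 11160 RPM, SerT 8361 and Vmat 16396, beside 222.96 RPM (54 reads) of DAT. The second uptake transporter thus had at most 54 reads in these cells.

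Vmat itself was high in the cells with a complete set and low in those with none of the 6 genes. In the 18 cells with the complete dopamine set, Vmat ranged from 3522 to 26205 RPM with a median of 13353 RPM. The 11 cells with the octopamine set ranged from 287.6 to 48446 RPM with a median of 15938 RPM, and the 9 cells with the serotonin set from 3061 to 34282 RPM with a median of 16396 RPM. The 17 Vmat cells with none of the 6 genes ranged from 26.9 to 9826 RPM with a median of 343.4 RPM, and 4 of them exceeded 1000 RPM. VGlut was present in all 17 of these cells (interval 80.5 to 100%). It was present in 20 of 25 cells with dopamine genes, 18 of 23 with octopamine genes, 8 of 11 with serotonin genes and 1 of the 3 mixed cells. VGlut was present in 64 of the 79 Vmat cells (81%, interval 70.6 to 89) and in 93.2% of the cells without a Vmat read (91.3 to 94.8).

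Across all 36 pairs of members, 28 had a log2 odds ratio of presence above 0 over the cells, and 27 of them stayed above 0 at 1 read and after thinning each cell to 50000 reads. A ratio above 0 means that the pair shared more cells than independent genes would, with the exception of Tdc2 and Trh. They had a ratio of 0.27 but shared 0 cells, against 0.378 if independent, because 0.5 is added to each count. The highest ratios joined an uptake transporter to the enzyme of its own amine. They were 7.36 for SerT and Trh, with 13 shared cells, and 7.16 for DAT and ple, with 23. Vmat came next with Tdc2 (6.30, 18 cells), DAT (5.57, 26 cells) and ple (5.13, 24 cells). The lowest ratios were those of SerT and Tbh (-2.74) and of Tbh and Trh (-2.15), which shared no cell, where independent genes would share 2.84 and 1.89 cells. At 1 read, SerT and Tbh shared 4 cells (-0.84) and Tbh and Trh 1 cell (-1.93), and the lowest ratio was that of Ddc and Tdc2 (-2.14, 1 cell). These ratios describe cells of 1 sample that differ in depth, and carry no test.

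**Figure D2:**
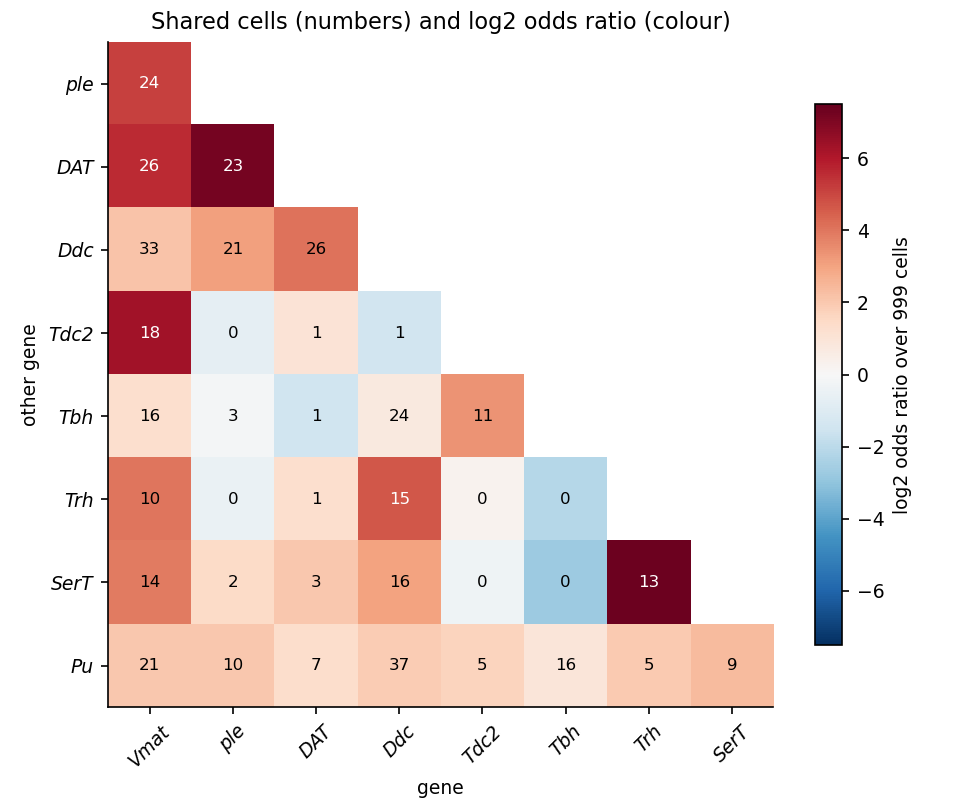
Log2 odds ratio of presence for each pair of genes over all cells (colour, red above 0 and blue below 0), with the number of cells in which both had at least 10 reads. SerT with Trh (13 cells) and DAT with ple (23 cells) have the highest ratios, and Tbh shares no cell with SerT or Trh at this read minimum.

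Vmat was present in most cells with genes of tyramine and dopamine. Of the 21 Tdc2 cells, 18 were Vmat cells (85.7%, interval 63.7 to 97), as were 26 of 35 DAT cells (74.3%, 56.7 to 87.5) and 24 of 35 ple cells (68.6%, 50.7 to 83.1). The shares were 10 of 18 for Trh (55.6%, 30.8 to 78.5) and 14 of 27 for SerT (51.9%, 31.9 to 71.3). Pu, Ddc and Tbh were the exceptions. Only 21 Pu cells (21.6%, 13.9 to 31.2), 33 Ddc cells (20.2%, 14.4 to 27.2) and 16 Tbh cells (15.2%, 8.97 to 23.6) were Vmat cells. Neighbours in this order overlapped in their intervals, but the intervals of Pu, Ddc and Tbh lay below those of DAT, ple, Tdc2 and SerT.

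Most Tbh cells had no Vmat. Of the Tbh cells, 87 had 0 Vmat reads (82.9%, interval 74.3 to 89.5), 2 had 1 read each and 16 had 10 or more. On the 12 plates with at least 5 Tbh cells, the share without Vmat reads ran from 55.6% to 100%. The 87 cells lay on all 16 plates, with at most 10 on a plate. A Tbh cell with Vmat was found on 9 plates and none on 7 plates, and Tbh cells without Vmat reads made up 9.03% of the cells on the 9 plates and 8.23% on the 7 plates. Total counts were alike, with a median of 451642 in Tbh cells without Vmat reads and 440026 in those with Vmat.

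Tbh levels were lower where Vmat was missing. The count ran from 10 over a median of 75 to 2259 reads in the 87 cells without Vmat reads, against 24 over 354.5 to 3421 reads in the 16 Tbh cells with Vmat. The median was 204.1 RPM in the cells without Vmat reads (quartiles 109.5 and 391.7) and 1184 RPM in those with Vmat (quartiles 372.99 and 2143). The groups overlapped, since 5 of the 87 cells exceeded the median of the Vmat cells, while 14 of these 16 exceeded the median of the 87.

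No other member was present in 61 of the 87 Tbh cells without Vmat reads (70.1%, interval 59.4 to 79.5). Tdc2, the enzyme before Tbh, was present in 0 of the 87, which allows a share of up to 3.45%, against 11 of the 16 with Vmat (68.8%, 41.3 to 89). In the cells without Tbh and Vmat reads, Tdc2 was in 3 (0.43%, 0.088 to 1.24). The 0 therefore does not set the Tbh cells apart from other cells without Vmat reads. Tdc1, the decarboxylase that is known mainly from non-neural tissue, was present in 0 of the 87 and in 3 of the 16 cells. Ddc was in 21 of the 87 cells (24.1%, 15.6 to 34.5), against 2 of the 16, and in 12.1% of the cells without Tbh and Vmat reads (9.76 to 14.7). These 21 cells were deeper, with a median total of 783308 reads, and the part of depth in their sharing was not tested. Most Tbh cells without Vmat reads carried VGlut, 84 of 87 (96.6%, 90.3 to 99.3), against 11 of 16 with Vmat (68.8%, 41.3 to 89).

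The rare enzyme and uptake genes also had lower levels where Vmat was missing. The median of DAT was 229.7 RPM in 9 cells without Vmat reads, against 5240 RPM in 26 Vmat cells. SerT had 249.7 RPM in 13 cells, against 4116 RPM in 14 Vmat cells, and Trh 458.6 RPM in 8 cells, against 2600 RPM in 10. For ple the medians were 255.3 RPM in 11 cells without Vmat reads and 1994 RPM in 24 Vmat cells. No cell without Vmat reads reached the median of the Vmat cells for any of these genes or for Tdc2, which had 22, 51 and 58 reads in its 3 cells without Vmat reads, against 12 to 1873 reads in 18 Vmat cells. Ddc and Pu differed little by Vmat. The medians were 502.1 RPM without Vmat reads and 559.4 RPM with Vmat for Ddc, and 132.2 RPM without and 218.25 RPM with Vmat for Pu, and the ranges between quartiles overlapped.

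**Figure D3:**
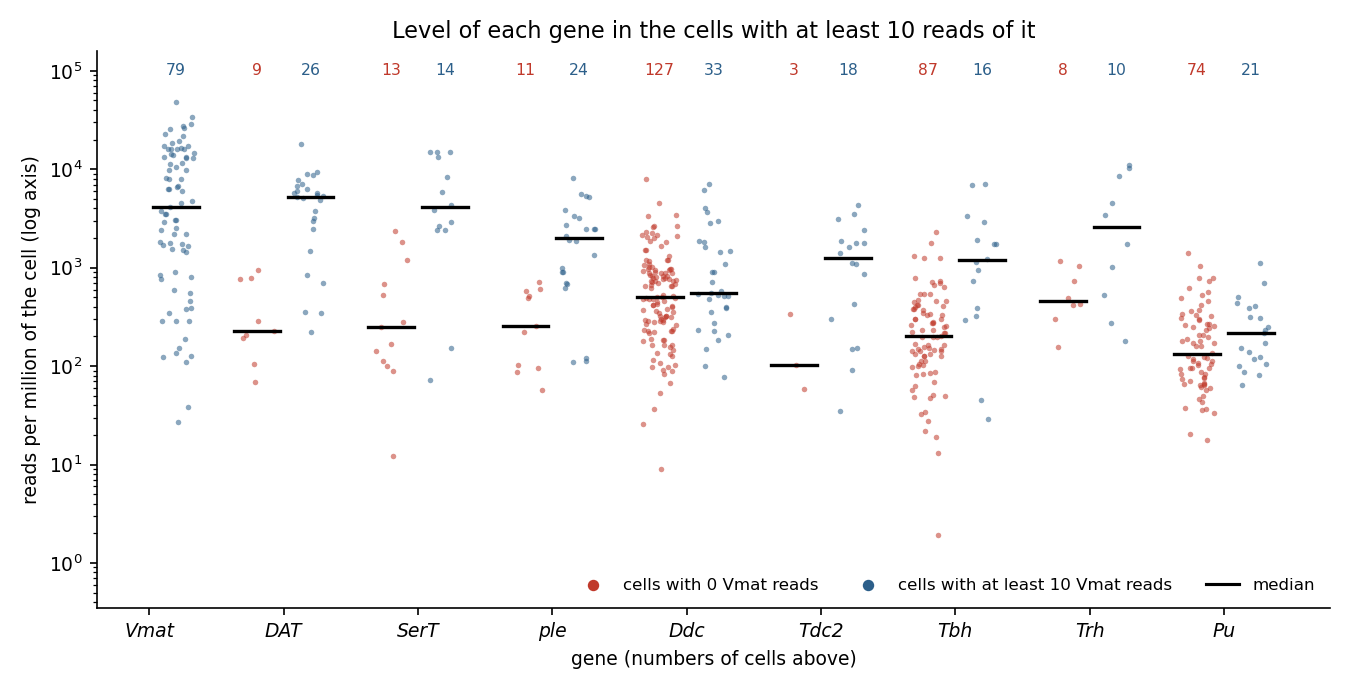
RPM (log axis) of each gene in every cell where it had 10 or more reads, for cells with 0 Vmat reads (red, left) and cells with at least 10 Vmat reads (blue, right), with medians as lines and cell numbers above. Tbh has a median of 204.1 RPM in 87 red cells and 1184 RPM in 16 blue cells, whereas Ddc has 502.1 and 559.4 RPM, and cells with 1 to 9 Vmat reads are left out.

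The 11 ple cells without Vmat reads were unlike those with Vmat in their other genes. DAT was present in 1 of them, with 56 reads, against 22 of the 24 ple cells with Vmat, and Ddc in 3 of 11 against 18 of 24. Pu was in 5 of the 11 (11 to 35 reads) and VGlut in 10. The deepest of these 11 cells, with 3282668 reads in all, had 103.6 RPM of ple and no read of Vmat, DAT or Ddc. Among the 9 DAT cells without Vmat reads, 1 had 3902 DAT reads together with 39825 Ddc and 2259 Tbh reads, in a total of 5016471. That cell held 34.5% of all Ddc reads. Of the 13 SerT cells without Vmat reads, 3 had Trh and 4 had Ddc, and 9 had SerT without either.

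The Hox genes, which pattern the body from head to tail, were used as markers of position along it. Because their primers were added, Hox genes were compared only between cells. A Hox gene was present in 46 of the 87 Tbh cells without Vmat reads (52.9%, interval 41.9 to 63.7), in 6 of the 16 with Vmat (37.5%, 15.2 to 64.6) and in 66.3% of the cells without Tbh and Vmat reads (62.7 to 69.8). Antp was present in 26 of the 87 cells, Ubx in 22, abd-A in 19 and Abd-B in 15, whereas lab was in 5 and Dfd and Scr in 2 each. The most posterior Hox gene was Abd-B in 15 cells, Ubx and abd-A in 9 cells each and Antp in 8, so that Tbh cells without Vmat reads covered the trunk and tail classes. Among all cells without Vmat reads, the share with Tbh was 12.9% (interval 5.74 to 23.9) where Antp was the most posterior Hox gene, 8.57% (3.99 to 15.6) for Ubx, 6.25% (2.90 to 11.5) for abd-A and 9.15% (5.21 to 14.6) for Abd-B. It was 12.6% (9.21 to 16.7) in the cells with no Hox gene. All of these intervals overlapped.

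The gene twit (target of wit), which was read in a subset of these cells, was common in Tbh cells. It was present in 26 of the 87 Tbh cells without Vmat reads (29.9%, interval 20.5 to 40.6), with 31 to 15183 reads, and in 4 of the 16 with Vmat (25%, 7.27 to 52.4). Among the cells without Tbh and Vmat reads it was in 18.8% (15.9 to 21.8), and the intervals overlapped slightly. Of the 26 twit cells, 24 also had a Hox gene, each time at least 1 of Antp, Ubx, abd-A and Abd-B, and 7 had Abd-B. Among all twit cells without Vmat reads, with or without Tbh, only 22 had no Hox gene, 2 of them Tbh cells. Most twit cells thus had a Hox gene, and this does not set those with Tbh apart. Read the other way, Tbh was in 24 cells with twit and a Hox gene but no Vmat read, 15% of such cells (9.85 to 21.5). It was in 20 cells with a Hox gene and no twit read (5.08%, 3.13 to 7.73), and in 38 cells with no Hox gene and no twit read (12.9%, 9.31 to 17.3). The interval of the Hox-positive cells without twit reads lay below both others, which overlapped. Median totals of these 3 groups were 360638, 342691 and 337355.

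Most Ddc cells had no Vmat either, but they were unlike the Tbh cells in their Hox genes and twit. Of the Ddc cells, 77.9% had 0 Vmat reads (interval 70.8 to 84), 3 cells had 1 or 2 reads and 33 cells had 10 or more. Ddc cells without Vmat reads made up 12.7% of all cells and lay on all 16 plates, and on the 15 plates with at least 5 Ddc cells their share ran from 40% to 100%. The share moved with depth. When the cells were divided by total count into 3 groups of equal size, a split made after seeing the data, it was 67.3% (52.5 to 80.1) in the shallowest group and 87.5% (75.9 to 94.8) in the deepest. Ddc counts ran from 10 to 39825 reads in the cells without Vmat reads and from 28 to 3156 reads in those with Vmat, and 60 of the cells without Vmat reads exceeded the median RPM of those with it.

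No other member was present in 78 of the Ddc cells without Vmat reads (61.4%, interval 52.4 to 69.9). Pu was present in 26 of them (20.5%, 13.8 to 28.5), against 11 of 33 Ddc cells with Vmat (33.3%, 18 to 51.8) and 44 cells without Ddc and Vmat reads (5.99%, 4.39 to 7.96). The first enzymes were rare, with ple in 3 and Trh in 6 of the Ddc cells without Vmat reads, against 18 and 9 of the 33 cells with Vmat. VGlut was in 95.3% of the Ddc cells without Vmat reads (90 to 98.2), against 25 of 33 with Vmat (75.8%, 57.7 to 88.9).

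A Hox gene was present in 38 of the Ddc cells without Vmat reads (29.9%, interval 22.1 to 38.7). It was present in 18 of the 33 with Vmat (54.5%, 36.4 to 71.9) and in 69.8% of the cells without Ddc and Vmat reads (66.3 to 73.1). The gap lay in the trunk and tail genes. At least 1 of Antp, Ubx, abd-A and Abd-B was in 18.9% of the Ddc cells without Vmat reads (12.5 to 26.8), against 59.5% of the cells without Ddc and Vmat reads (55.9 to 63.1). For lab, Dfd or Scr, the counted genes of the head and anterior segments, the shares were 16.5% (10.5 to 24.2) and 14.6% (12.1 to 17.3). Of these, lab was in 12 of the Ddc cells without Vmat reads, with a median of 15.5 reads, near the read minimum. It was the most posterior Hox gene in 31 of the 68 lab cells without Vmat reads, so that it marks position poorly. The shares were 4.72% and 3.68% for Dfd and 5.51% and 5.04% for Scr, so that they too were close. At a minimum of 1 read, 51.2% of the Ddc cells without Vmat reads had a Hox gene (42.2 to 60.1), against 80.1% of the cells without both (77 to 82.9).

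The Ddc cells without Vmat reads had a median total of 395761 reads, against 321887 in cells without Ddc and Vmat reads. The part of depth in their Hox shares was not tested. Within the 3 depth groups, from the shallowest to the deepest, the Hox share of the Ddc cells without Vmat reads was 21.2%, 22.2% and 42.9%, against 64.2%, 74.7% and 70.7% of the cells without Ddc and Vmat reads. On the 13 plates with at least 5 such Ddc cells, the share ran from 0% to 44.4%, while that of all cells ran from 49% to 72.6% over the 16 plates.

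**Figure D4:**
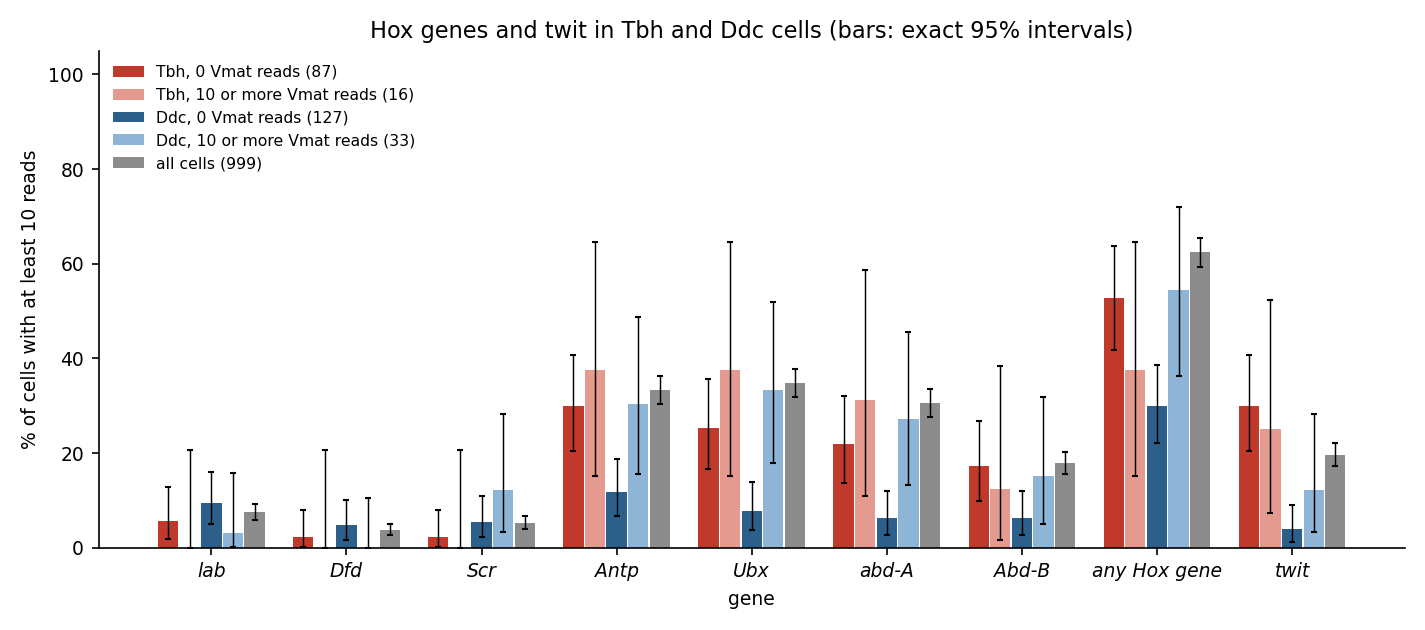
Percent of cells with at least 10 reads of each Hox gene, of any Hox gene and of twit (bars, with exact 95% intervals), in Tbh and Ddc cells with 0 or with at least 10 Vmat reads and in all cells. The Ddc cells without Vmat reads are lowest for Antp, Ubx, abd-A, any Hox gene (29.9%) and twit (3.94%), and the Tbh cells without Vmat reads have twit in 29.9%.

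The Hox class divided the Ddc cells steeply. Among cells without Vmat reads, Ddc was in 89 of those with no Hox gene (27.4%, interval 22.6 to 32.6) and in 38 of those with a Hox gene (6.65%, 4.75 to 9.02). By the most posterior Hox gene, it was in 5 of 31 lab cells, 6 of 33 Dfd cells, 3 of 32 Scr cells and 9 of 62 Antp cells (14.5%, 6.86 to 25.8). In the Ubx class it was in 5 cells (4.76%, 1.56 to 10.8), in the abd-A class in 2 cells (1.39%, 0.169 to 4.93) and in the Abd-B class in 8 cells (4.88%, 2.13 to 9.39). The interval of the abd-A class lay below those of the Antp, Dfd and lab classes. Thinned to 50000 reads, Ddc was read in 28.9% of the cells with no Hox gene and in 8.06% of those with one.

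Pu followed Ddc in this, in part in the same cells, since 26 of the 74 Pu cells without Vmat reads were also Ddc cells. Pu cells without Ddc were not counted apart. Pu was present in 55 cells with no Hox gene and no Vmat read (16.9%, interval 13 to 21.5) and in 19 cells with a Hox gene and no Vmat read (3.33%, 2.02 to 5.15). Of the 74 Pu cells without Vmat reads, 19 had a Hox gene (25.7%, 16.2 to 37.2) and 2 had twit (2.70%, 0.329 to 9.42). These Pu cells had a median total of 507098, above that of all cells.

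**Figure D5:**
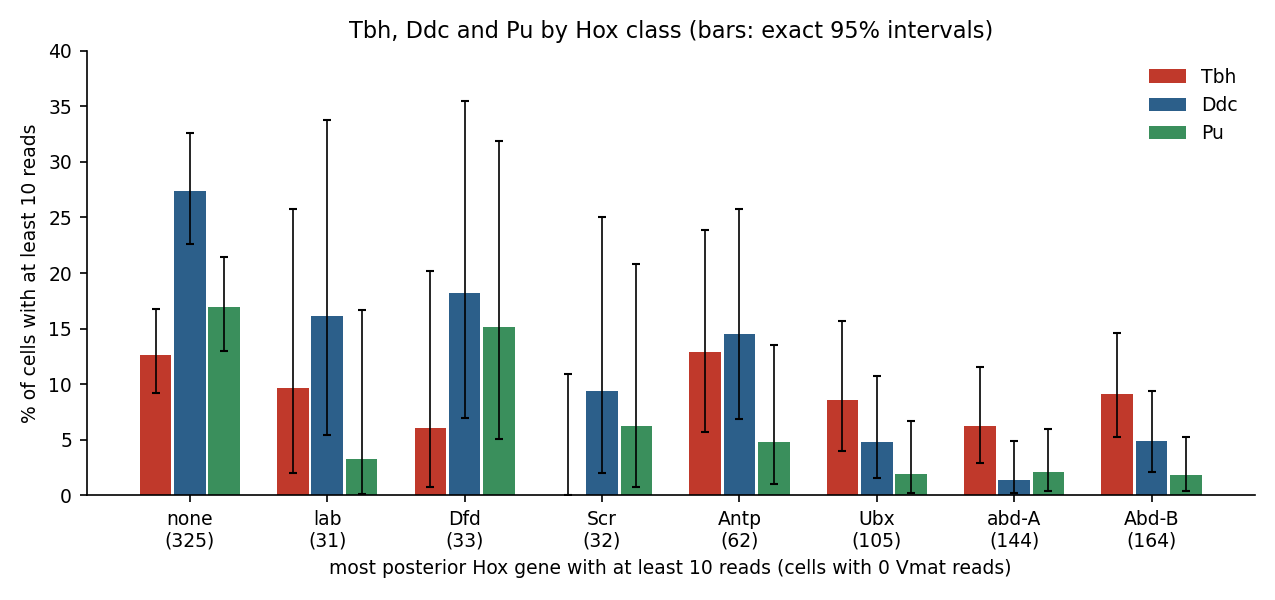
Percent of the cells with 0 Vmat reads in which Tbh, Ddc or Pu had at least 10 reads (bars, with exact 95% intervals), by the most posterior Hox gene present, with cell numbers in brackets. Ddc is in 27.4% of the cells with no Hox gene and in 1.39% of the abd-A class, whereas the intervals of Tbh overlap across the classes.

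Ddc cells without Vmat reads also had little twit. It was present in 5 of them (3.94%, interval 1.29 to 8.95), in 4 of the 33 with Vmat (12.1%, 3.40 to 28.2) and in 23.4% of the cells without Ddc and Vmat reads (20.4 to 26.7). In the 5 cells, twit had 26 to 1492 reads. Of the twit cells without Vmat reads, 5 had Ddc (2.75%, 0.898 to 6.29) and 26 had Tbh (14.3%, 9.55 to 20.2), and these intervals did not overlap. Both shares count the same twit cells, and their comparison is no test. Ddc was in 34 cells with a Hox gene but no twit read (8.63%, 6.05 to 11.9) and in 85 cells with neither (28.9%, 23.8 to 34.5), so that the difference by presence of a Hox gene was also found among cells without twit reads. Of the other subtype genes, zfh1, a homeodomain gene of MNs, was in 18 of the Ddc cells without Vmat reads (14.2%, 8.62 to 21.5), against 39% of the cells without Ddc and Vmat reads (35.4 to 42.6). In Tbh cells without Vmat reads it was in 25 of 87 (28.7%, 19.5 to 39.4).

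The dopamine cells with Vmat had a Hox gene more often than the Ddc cells without it, but these groups were chosen by different genes. Of the 25 Vmat cells with genes of dopamine only, 16 had a Hox gene (64%, interval 42.5 to 82), whereas 8 of 23 with octopamine genes (34.8%, 16.4 to 57.3) and 4 of 11 with serotonin genes (36.4%, 10.9 to 69.2) did. The intervals of these 3 groups overlapped, while that of the dopamine group lay above the 22.1 to 38.7% of the Ddc cells without Vmat reads. Only 18 of the 25 dopamine cells had Ddc. For the Ddc cells with Vmat, the interval given above overlapped that of the Ddc cells without Vmat reads. For twit, 4 of 25, 4 of 23 and 0 of 11 cells were positive, and the 4 octopamine cells with twit all carried Tdc2, Tbh and Vmat together. The LIM homeodomain gene tup, which is known to act in dopamine and serotonin neurons, was in 18 of the 24 ple cells with Vmat (75%, 53.3 to 90.2) and in 4 of the 10 Trh cells with Vmat. It was in 0 of the 18 Tdc2 cells with Vmat and in 77 cells without a Vmat read (8.59%, 6.84 to 10.6). The segment genes en and inv, which are also expressed in some midline neurons and in the lineage of the serotonin neurons, had 10 reads in 3 of the 10 Trh cells with Vmat and in none of the 18 Tdc2 cells with Vmat, which allows a share of up to 16.7%. The other 6 of the 9 regulators listed were rarer in these cells or had wide intervals, apart from zfh2. This zinc finger homeodomain gene was in 22 of the 24 ple cells with Vmat (91.7%, 73 to 99), 9 of the 18 Tdc2 and 6 of the 10 Trh cells with Vmat, against 63.3% of the cells without a Vmat read (60 to 66.4). The serotonin lineage factor eg was in none of all cells, and hkb, another gene of that lineage, was in 2 of the 10 Trh cells with Vmat (20%, 2.52 to 55.6), against 12.7% of the cells without a Vmat read (10.6 to 15.1). No Vmat cell had dimm, which was in 3 cells in all. The factors ap and dac were in 0 of the 24 ple cells with Vmat, which allows a share of up to 12.5%, and in 2 and 0 of the 10 Trh cells with Vmat, against 3.35% and 13.8% of the cells without a Vmat read.

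When every other gene was ranked by its correlation with a member over the cells, the nearest genes of Vmat, DAT, ple, SerT and Trh were mostly other members. Genes with at least 10 reads in 20 cells were ranked, and r describes cells of 1 sample that share depth and plate. For a gene named by its r, a larger share in the cells of that member restates r and is no further support. An r of 0.3 or more was reached with Vmat by 0.114% of 6128 genes, led by DAT (r = 0.57), ple (0.50) and Tdc2 (0.49). For DAT it was 0.163%, led by ple (0.76), fd96Cb (0.61) and Vmat, and for ple it was 0.131%, led by DAT, fd96Cb (0.59) and Vmat. The forkhead factor fd96Cb was present in 21 cells, among them 14 of the 24 ple cells with Vmat (58.3%, interval 36.6 to 77.9) and 0 of the 11 without Vmat reads. For Trh the share was 0.0326%, namely SerT (0.70) and Vmat (0.30, or 0.26 without plate 7), and for SerT 0.0163%, with Vmat (0.36) as the only gene. Trh, present in 18 cells, was below the minimum of 20 cells and could not be ranked with the other members.

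Tdc2 and Tbh shared vestigial (vg), a nuclear factor known from wing and muscle development. For Tdc2, 0.0816% of the genes reached r of 0.3, led by vg (0.49), Vmat (0.49) and Tbh (0.33), and for Tbh 0.0326%, namely Tdc2 (0.33) and vg (0.31). Without plate 1, r was 0.295 for Tdc2 with Tbh and 0.286 for Tbh with vg, and without plate 6 it was 0.269 for Tbh with vg. Of the 26 cells with vg, 11 were Tbh cells with Vmat, which is 11 of the 16 such cells (68.8%, interval 41.3 to 89), and 3 were among the 87 Tbh cells without Vmat reads (3.45%, 0.717 to 9.75). Among the cells with 0 Vmat reads, a restriction added after seeing the data, no gene reached r of 0.3 with Tbh (0% of 5957), and the highest r was 0.15.

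Ddc and Pu had other neighbours. For Ddc, 0.0816% of the genes reached r of 0.3, led by Rfx (0.37), Sytbeta (0.37) and heph (0.36), and for Pu 0.0326%, namely Rfx (0.35) and Sytbeta (0.31, or 0.295 without plate 2). Rfx is a transcription factor known for ciliated sensory neurons, Sytbeta a synaptotagmin and heph an RNA-binding protein of the polypyrimidine tract binding family. Within the cells with 0 Vmat reads, 0.101% of the genes reached this r with Ddc and 0.0504% with Pu, again led by Rfx (0.43 for Ddc and 0.40 for Pu). Rfx was in 54 of the Ddc cells without Vmat reads (42.5%, interval 33.8 to 51.6) and in 36 of the 74 Pu cells without them (48.6%, 36.9 to 60.6). It was in 19 of the 26 cells with both genes and no Vmat read (73.1%, 52.2 to 88.4), against 46 cells without Ddc and Vmat reads (6.27%, 4.62 to 8.27). In Ddc cells with Vmat it was in 3 of 33 (9.09%, 1.92 to 24.3). Of the other neighbours, Sytbeta did not divide the Ddc cells by Vmat in this way. Sytbeta was in 76.4% of the Ddc cells without Vmat reads (68 to 83.5) and in 27 of the 33 with Vmat (81.8%, 64.5 to 93), against 30.5% of the cells without Ddc and Vmat reads (27.2 to 34). For heph the shares were 78.7% (70.6 to 85.5), 51.5% (33.5 to 69.2) and 27.9% (24.7 to 31.3). Its interval in the Ddc cells with Vmat lay below that in the Ddc cells without Vmat reads.

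The other genes of these pathways were followed as a list of 19 names, of which Dat and speck are the same gene in the annotation. Of the cofactor genes, Pcd and Dhpr had larger shares in Pu cells than in all cells, and pr and Sptr were rare. The Pu cells without Vmat reads were deeper than all cells, with median totals of 507098 and 340803 reads and 1625 and 1111 genes at 10 reads, and the part of depth in these shares was not tested. Pcd, which recycles tetrahydrobiopterin, was in 27 of the 74 Pu cells without Vmat reads (36.5%, interval 25.6 to 48.5), in 38 of the Ddc cells without them (29.9%, 22.1 to 38.7) and in 18 of the 79 Vmat cells (22.8%, 14.1 to 33.6), against 12.1% of all cells (10.2 to 14.3). Dhpr, which regenerates the cofactor, was in 21 of the 74 Pu cells (28.4%, 18.5 to 40.1) and in 21 of the 79 Vmat cells (26.6%, 17.3 to 37.7), against 11% of all cells (9.14 to 13.1). Sptr was in 5 (6.76%, 2.23 to 15.1) and pr in 3 (4.05%, 0.844 to 11.4) of the 74 Pu cells, against 27 (2.7%, 1.79 to 3.91) and 24 (2.4%, 1.55 to 3.55) of all cells, with overlapping intervals. Dat, an arylalkylamine acetyltransferase that inactivates amines, was in 46 of the Ddc cells without Vmat reads (36.2%, 27.9 to 45.2) and in 6 of the 10 Trh cells with Vmat. It was in 0 of the 24 ple cells and 0 of the 18 Tdc2 cells with Vmat, against 21.8% of all cells (19.3 to 24.5). Catsup, known as an inhibitor of ple, was in 17 cells without a Vmat read (1.9%, 1.11 to 3.02). It was in 0 of the 79 Vmat cells, which allows a share of up to 3.8%, so that no difference was detectable. The other list genes were in few cells, with y in 54, stw in 9, AANATL2 in 5, Tdc1 and Prt in 4 each, e and ine in 2 each, amd, b and yellow-f in 1 each and Hn and t in none.

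Because Ddc, ple and Pu also act in the cuticle, epidermal genes were read in the same cells. The epidermal factor grh was in none of the Ddc cells and none of the Pu cells without Vmat reads, and the chitin synthase kkv in 2 of these Ddc cells and 0 of these Pu cells. Of the rest of that list, knk and verm were in none of the Ddc cells without Vmat reads, Cht5 and stw in 1 each and serp in 16 (12.6%, interval 7.38 to 19.7), against 66 cells with no member (10%, 7.84 to 12.6). The muscle factor Mef2, which neurons also express, was in 75 of the Ddc cells without Vmat reads (59.1%, 50 to 67.7), against 26.7% of the cells with no member (23.4 to 30.3), while Mhc was in 1 of these Ddc cells. The part of Mef2 in the Ddc pattern was not tested.

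Almost all ple reads came from 1 transcript. It was ple-RA, which held 97.5% of the ple reads of the 35 ple cells and more than 50% in 34 of them, while ple-RB, which encodes the longer form known from the epidermis, had 0 reads in every cell. For Ddc, the median cell without Vmat reads had 81% of its Ddc reads on Ddc-RD and 1.7% on Ddc-RC, and the median cell with Vmat had 48.4% on Ddc-RD and 27.7% on Ddc-RC. Ddc-RD held more than 50% in 76 cells without Vmat reads and in 16 of the 33 with Vmat, and Ddc-RC in 28 and in 13 of them. Pooled reads gave another order in the cells with Vmat, with 35% on Ddc-RD and 56% on Ddc-RC, since few cells hold most reads. Such shares are estimates, because single reads of 75 bases divide similar transcripts poorly. The transcripts of DAT had exactly 50% each in every cell and could not be told apart. Those of Tbh, which differ by 1 base in length, were divided in part. Tbh-RB held from 41.5% to 100% of a cell's Tbh reads and Tbh-RC never more than 58.5%. The median Tbh cell had 44.1% on Tbh-RB and 55.9% on Tbh-RC. In the 16 Tbh cells with Vmat, the median on Tbh-RB was 96.4%, and it held more than 50% in 13 of them. In the 87 without Vmat reads, the median was 43.9%, and it held more than 50% in 35. The part of the Tbh level in this difference was not tested.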

How the data were processed

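Single cells sorted as motoneurons were sequenced by SMART-Seq2 with 75-base single-end reads and no molecular identifiers. The authors trimmed poly-A tails, assigned the reads to the BDGP6 cDNA with kallisto (0.43.0 in the submitters' processing notes, which also name R 3.5.1), and kept cells with 10 reads for at least 500 genes and genes with 10 reads in at least 5 cells. The deposited gene table holds estimated counts, rounded and not normalized, for 7279 genes in 999 cells. A deposited table for each cell gives estimated counts and TPM values of 30651 transcripts. Both were added up here over the transcripts of a gene in Ensembl release 115. The summed counts of all 9 members equalled the gene counts within 1 read in every cell, and list genes outside the gene table were read from these sums. No column belonged to another sample.

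The shares refer to 163 Ddc cells (127 without Vmat reads), 105 Tbh cells, 97 Pu cells, 896 cells without Vmat reads (571 with and 325 without a Hox gene, 182 with twit), 704 cells without Tbh and Vmat reads, 734 without Ddc and Vmat reads and 658 with no member. Presence was set at 10 reads, with 1 read, thinning to 50000 reads, transcript sums and leaving out each plate as alternatives. Odds ratios used 0.5 more in each cell of the 4-cell table. Correlations used log2(normalized count + 1), with size factors from total counts, and size factors by edgeR (4.0.16, R 4.3.3; TMM with singleton pairing), a pseudocount of 10 and no filter as alternatives. For each member, up to 3 genes with r of at least 0.3 were named. The other genes named come from fixed lists, apart from the single cells described one by one. With 1 pooled sample, no p-value was computed and no doublet caller was run. The code was tested on simulated data. The members and lists were chosen with earlier results of these data known. Analyses used Python 3.11.15, numpy 2.4.6, scipy 1.17.1 and pandas 2.3.3.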

Additional observations from a re-analysis of the deposited data

How the results depend on the processing

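Of the values recomputed under an alternative, 21 moved beyond their interval, 18 correlations came under 0.3, 5 values changed sign and the others kept their place. At 1 read instead of 10, applied to Tbh, Ddc and the Hox genes alike and so to more cells, a Hox gene was read in 72.4% of Tbh cells and 55.6% of Ddc cells without Vmat reads, against 75.3% of all cells, and 20.4% of cells had at least 2 members. Thinned to 50000 reads, 64.6% of Tbh cells without Vmat reads and 67.8% of all cells had a Hox read. By depth, a split chosen after seeing the data, the share without Vmat reads was 71% of Tbh cells in the middle of 3 equal groups, and 67.3% and 87.5% of Ddc cells in the lowest and highest. Among these Ddc cells, a Hox gene was in 21.2% and 42.9% in the lowest and highest and twit in 9.09% in the lowest, and twit was in 45.5% of the Tbh cells without Vmat reads in the middle group.

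Without each plate in turn, the share without Vmat reads ran from 81.2% to 85.4% for Tbh and from 76% to 79.2% for Ddc. The Hox share ran from 50.6% to 55.8% in these Tbh cells and from 27.5% to 31.9% in these Ddc cells, the twit share from 27.3% to 31.7% and from 2.48% to 4.59%, and the share of cells with at least 2 members from 11.9% to 13.3%. Of 22 named correlations, 18 to 22 stayed at 0.3 or more. Those below 0.3 without some plate were Tdc2 with Tbh, Tbh with vg, Trh with Vmat and Pu with Sytbeta, and pairs whose gene came under 20 cells were not ranked. With edgeR's TMM factors or a pseudocount of 10, 21 stayed, and Pu with Sytbeta did not. The log2 odds ratio of ple and Tdc2 was 1.71 at 1 read instead of -0.69, that of ple and Tbh 0.22 at 1 read and 0.16 after thinning instead of -0.14, and that of Tdc2 and Trh -0.19 at 1 read instead of 0.27, each on at most 11 shared cells. Tdc2 and Tbh had r of -0.027 among cells without Vmat reads. TMM factors gave a median of 6994 RPM for Vmat, against 4089 RPM by total counts, and of 943.1 RPM for SerT, against 1842 RPM. The causes were not tested. No paired analysis was possible because the cells come from 1 pooled sample.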
